A study of Homo sapiens with 18 samples.

Results

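Heavy polysomes are mRNAs that carry many ribosomes, and light polysomes are mRNAs that carry few. This comparison set the heavy polysome libraries of vehicle-treated HEK293 cells against the light ones, gene by gene. HEK293 (ATCC CRL-1573) is a long-established line derived from human embryonic kidney. The cells received DMSO, the vehicle, for 12 h, and no group compared here received minocycline. Sucrose gradients of cytoplasmic lysates gave 3 fractions (monosomes, light polysomes and heavy polysomes), with 3 biological replicates of each. The whole series has 18 libraries, and the other 9 come from cells given 100 µM minocycline, which were not analysed here. The 3 heavy and 3 light vehicle libraries were the samples compared, and the 3 monosome libraries entered only the filter on low values and the estimate of the spread between replicates. Of 13661 rows in the table, 13428 had a gene symbol, and 12059 of those had a mean normalized count of at least 20 over the 9 vehicle libraries. All 12059 were tested, and 1369 genes with a symbol fell below that level. Spike-in RNA was added after fractionation and is not used here.

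As background, a ribosome covers a short stretch of mRNA, so the number of ribosomes that can sit on a message is bounded by the length of its coding part. Below that bound, the number depends on how often ribosomes start and how fast they move. Messages with very short coding parts have room for few ribosomes. Upstream reading frames, recoding of stop codons and the TOP motif at the start of ribosomal protein mRNAs are known features that set ribosome load. Each library was scaled to the same typical gene, so a difference says how a gene lay relative to other genes. It says nothing of how much RNA a fraction held, and fewer mRNA molecules cannot be told apart from a smaller share of them.

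Light libraries 1, 2 and 3 held 18948136, 16809945 and 19558832 reads, and heavy libraries 1, 2 and 3 held 17045699, 24441159 and 15103945. Light library 2 stood apart from its group. Across genes on the log2 scale it correlated at 0.932, 0.916 and 0.948 with heavy libraries 1, 2 and 3, but at 0.881 and 0.867 with light libraries 1 and 3, which correlated at 0.985 with each other (Pearson r; genes are not independent replicates). Each count is therefore given with all replicates and without replicate 2, and the genes the results turn on with both differences. Of 10 genes that HEK293 cells are known to carry, 9 were in the table, among them VIM, PAX2 and NEFM. They took between 0.171% and 0.268% of the normalized counts of the light and heavy libraries, and TUBB3 was not analysed here. Of 13 markers of blood, liver, muscle and keratinised epithelium, 3 were in the table, with at most 0.00101% of the counts of any of the 6 libraries.

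Short coding parts marked the genes that lay farthest towards light polysomes. The 4 below are examples with short coding parts, chosen with their values known, and are not the 4 shortest measured. They are printed 5′ to 3′ as DNA from the GENCODE release 29 model on GRCh38, with the start and stop codons in capitals.
RPL41: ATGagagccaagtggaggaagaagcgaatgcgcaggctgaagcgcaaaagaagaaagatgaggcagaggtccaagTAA
OST4: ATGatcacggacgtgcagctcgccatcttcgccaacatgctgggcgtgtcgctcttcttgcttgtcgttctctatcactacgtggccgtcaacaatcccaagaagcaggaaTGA
ATP5F1E: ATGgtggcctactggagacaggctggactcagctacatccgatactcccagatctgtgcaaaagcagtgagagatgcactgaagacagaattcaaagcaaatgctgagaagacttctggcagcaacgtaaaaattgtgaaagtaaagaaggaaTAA
COX17: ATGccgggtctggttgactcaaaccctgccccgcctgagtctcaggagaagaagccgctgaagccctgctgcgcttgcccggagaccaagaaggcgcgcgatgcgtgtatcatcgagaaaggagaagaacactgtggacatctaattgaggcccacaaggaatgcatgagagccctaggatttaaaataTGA

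The coding parts above are 78, 114, 156 and 192 nt long with the stop codon. RPL41 (chromosome 12, 56116586 to 56117943) encodes a 25-residue protein of the large ribosomal subunit. OST4 (chromosome 2, 27070472 to 27071773) encodes a small subunit of the oligosaccharyltransferase, which glycosylates proteins in the endoplasmic reticulum. ATP5F1E (chromosome 20, 59025467 to 59032382) encodes the epsilon subunit of ATP synthase. COX17 (chromosome 3, 119654513 to 119677454) encodes a copper chaperone of cytochrome c oxidase.

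ATP5F1E had normalized counts of 11745, 2285 and 15490 in light libraries 1, 2 and 3 and of 1196, 493 and 1433 in the heavy ones. The groups did not overlap, and the light library of replicate 2 was the lowest of its group. Its log2 difference, heavy minus light, was -2.98 (SE 0.63, adjusted p = 0.00689 by limma, lower in 3 of 3 replicates), and -3.36 without replicate 2. COX17 had 3062, 536 and 3187 in light libraries and 323, 140 and 308 in heavy ones. Its difference of -2.85 (SE 0.65, adjusted p = 0.00787 by limma) was -3.30 without replicate 2.

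OST4 had normalized counts of 4208, 356 and 4868 in light libraries and 299, 196 and 477 in heavy ones. Light library 2 lay within the range of the heavy libraries. The log2 difference was -2.67 (SE 0.75, adjusted p = 0.0162 by limma), and -3.58 without replicate 2. RPL41, with 17076, 3208 and 20128 in light libraries and 3019, 2922 and 5654 in heavy ones, overlapped in the same way. RPL41 did not pass with all replicates (-1.49, SE 0.66, adjusted p = 0.0915 by limma) and passed without replicate 2 (-2.17, SE 0.37, adjusted p = 0.000243). Ribosomal protein genes often have processed copies elsewhere in the genome, and the handling of shared reads is not given in the sources used here, so a single gene's value is uncertain.

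Over all 12059 genes, 1883 were higher in heavy polysomes (15.6%) and 2211 higher in light polysomes (18.3%), while 7965 passed in neither direction. These calls used limma on log2(normalized count + 1), fitted to the 9 vehicle libraries, with a Benjamini-Hochberg adjusted p under 0.05, two-sided. Without replicate 2, 3773 genes were higher in heavy polysomes (31.3%) and 3718 higher in light ones (30.8%), with 4568 in neither. Both fits shared 1867 heavy and 2206 light calls, and no gene was called in opposite directions. The 21 calls lost without replicate 2 were 16 heavy and 5 light ones, among them the mitotic checkpoint kinase BUB1 and the methylated-DNA binding protein UHRF1, which were chosen for naming after their values were seen.

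Replicate 2 had smaller differences than the other two. The SD of the log2 differences over genes was 1.41 in replicate 1, 0.889 in replicate 2 and 1.31 in replicate 3. Across genes, the differences of replicates 1 and 3 correlated at 0.938, those of 1 and 2 at 0.510, and those of 2 and 3 at 0.542. Of the 4094 calls with all replicates, 3963 (96.8%) had the same sign in all 3 replicates, and the libraries of the groups did not overlap for 3574. Over all genes tested, 5318 (44.1%) had groups that did not overlap. Of the 7491 calls without replicate 2, 5773 (77.1%) had that sign in replicate 2 as well. In 65 genes all 3 differences exceeded 1 in size with replicate 2 opposite in sign to the other two.

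The calls rested on replicates 1 and 3. Without replicate 1 limma called 0 genes (2442 at an unadjusted p under 0.05), and without replicate 3 it called 2 (3052 unadjusted). Those 2 were HSPA1A, an inducible heat shock protein, and NPIPB11, of the NPIP family; both belong to families of near-identical copies, and both were named after their values were seen. Leaving out light library 1, 2 or 3 alone gave 1485, 6312 or 997 calls in place of 4094. Without heavy library 1 or 2 there were 2080 or 2365, and without heavy library 3 there were 3158.

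**Figure D1:**
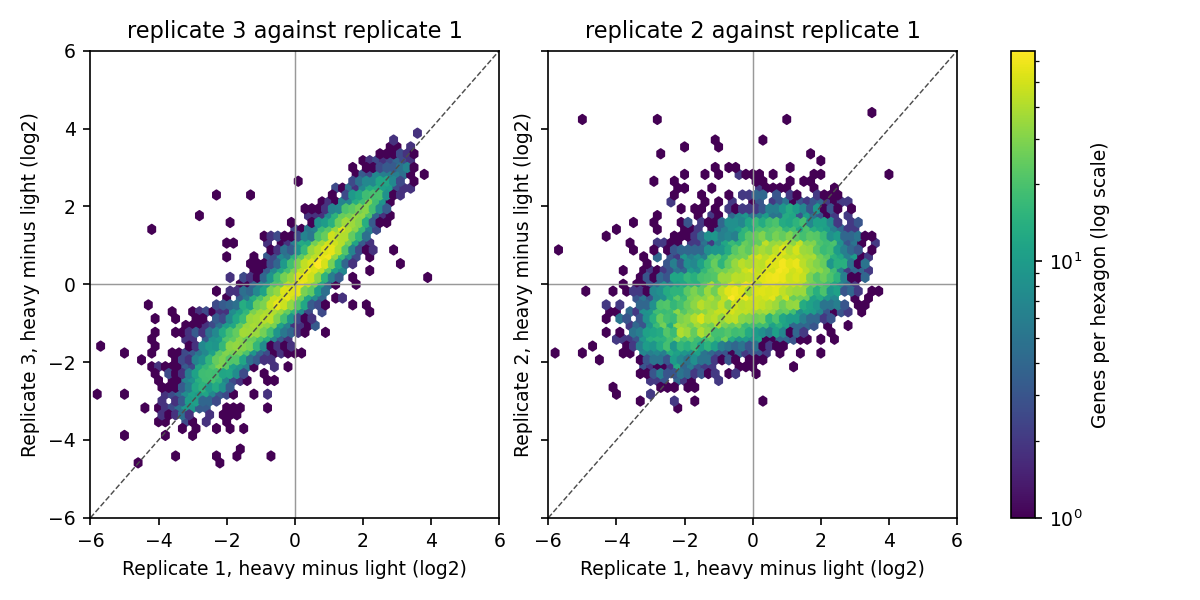
Log2 difference, heavy minus light, of each of the 12059 genes in replicate 3 (left) and replicate 2 (right) against replicate 1; colour gives the number of genes per hexagon on a log scale, and the dashed line marks equal values. Replicates 1 and 3 follow the line (r = 0.938), while replicate 2 spreads less along its own axis and around a flatter trend (r = 0.510).

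Coding length set apart the largest groups of genes. The 12041 nuclear genes with a coding length were placed in classes, and the median log2 difference of each class was taken in each replicate. At 151 to 300 nt (234 genes) the medians were -2.61, -1.51 and -2.44 in replicates 1, 2 and 3. At 301 to 450 nt (558 genes) they were -1.78, -1.09 and -1.71, and at 451 to 600 nt (713 genes) -1.01, -0.84 and -0.77. All 3 replicates thus had the short messages on the light side. Among the 242 genes with a coding part of at most 300 nt, 227 (93.8%) were higher in light polysomes and 0 in heavy ones (238 and 0 without replicate 2).

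Of the 800 genes with at most 450 nt, 607 (75.9%) were higher in light polysomes and 0 in heavy ones. Without replicate 2 these counts were 702 (87.8%) and 8. The 8 were MAGOH and MAGOHB, 2 nearly identical proteins of the exon junction complex, ADM2, CST3, UFSP1, NDUFA12, SRP14 and CALCB. Their coding parts ran from 384 to 447 nt. MAGOH had a difference of 1.29 without replicate 2 (adjusted p = 0.00143 by limma) and -0.08 in replicate 2. Of these 8 genes, named after their values were seen, ADM2 alone was above 1 in replicate 2, at 1.19.

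The classes from 1201 to 3000 nt had medians on the heavy side in each replicate. At 901 to 1200 nt (1779 genes) the medians were 0.36, -0.17 and 0.42 in replicates 1, 2 and 3. In replicate 2 the highest median was that at 6001 to 9000 nt (0.66). At 1201 to 1500 nt (1578 genes) the medians were 0.49, 0.09 and 0.50 in replicates 1, 2 and 3, and 26.6% of genes were higher in heavy polysomes against 11.8% higher in light ones. From 901 to 3000 nt, 1573 of 7223 genes (21.8%) were higher in heavy polysomes and 798 (11%) in light ones. Without replicate 2 these were 2888 (40.0%) and 1597 (22.1%).

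For the longest coding parts the replicates parted. Above 9000 nt (93 genes) the medians were -1.10 and -1.12 in replicates 1 and 3 and 0.04 in replicate 2. At 6001 to 9000 nt (210 genes) they were -0.55 and -0.57, against 0.66 in replicate 2. Of the 303 genes above 6000 nt, 215 were below 0 in both replicates 1 and 3, 216 were above 0 in replicate 2, and 143 did both. Among these 303, 38 (12.5%) were higher in light polysomes and 6 in heavy ones with all replicates, but 150 (49.5%) and 10 without replicate 2. Medians on the light side at great length were thus measured in replicates 1 and 3 and not in replicate 2. In replicate 2 the median fell only above 9000 nt, from 0.66 to 0.04.

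**Figure D2:**
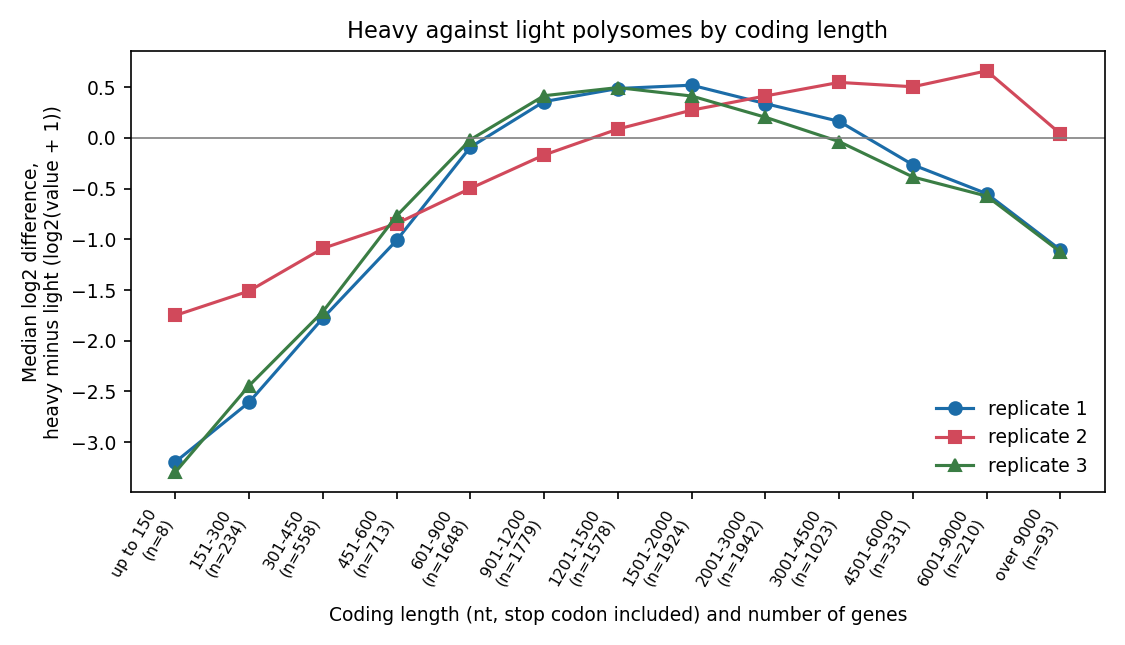
Median log2 difference, heavy minus light, of nuclear genes in 13 classes of coding length (nt, stop codon included), with 1 line per replicate and the number of genes per class on the x axis. Short classes lie below 0 in each replicate, and above 6000 nt replicates 1 and 3 fall to -1.10 and -1.12 while replicate 2 stays at or above 0.04.

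**Figure D3:**
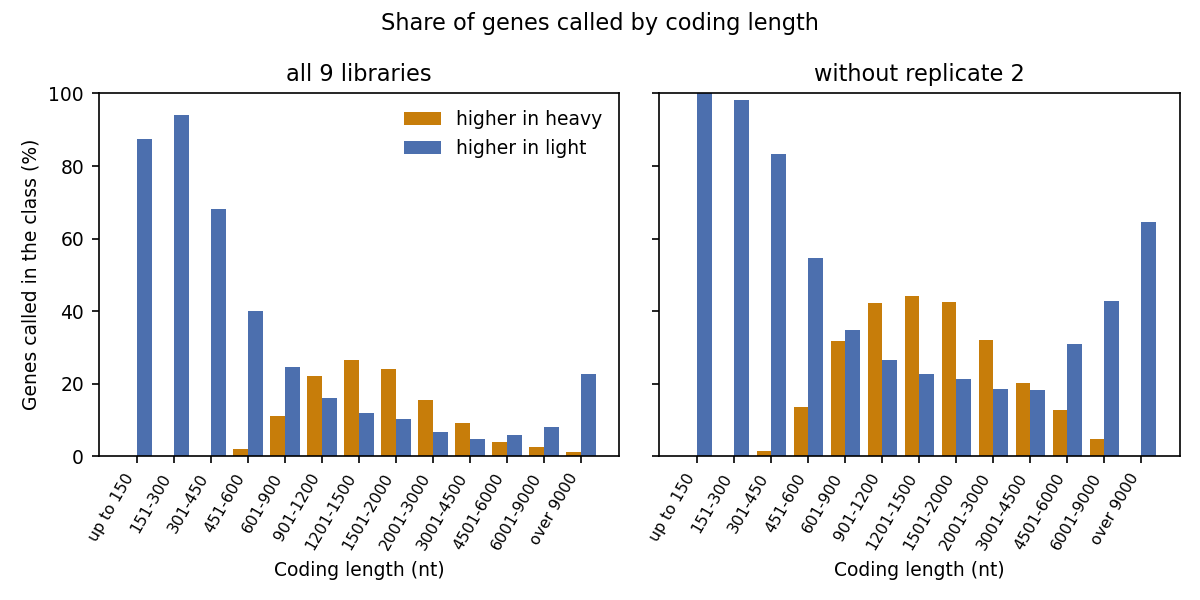
Share of genes in each class of coding length (nt) that limma called higher in heavy or in light polysomes (percent of the class), with all 9 libraries on the left and without replicate 2 on the right. The light share falls from 94.0% at 151 to 300 nt to 4.79% at 3001 to 4500 nt, and above 9000 nt it is 22.6% with all libraries and 64.5% without replicate 2.

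UTR length was read only among genes with a coding part of 901 to 3000 nt. In this range the medians of the coding length classes ran from 0.23 to 0.40. By 5′ UTR length, the median log2 difference was 0.48 in the quartile with the shortest 5′ UTRs and 0.22 in the quartile with the longest. By 3′ UTR length it was 0.43 in the shortest quartile and 0.17 in the longest. In replicate 2 the corresponding medians were 0.19 and 0.12 by 5′ UTR, and 0.30 and 0.02 by 3′ UTR, so the shortest quartile was again above the longest.

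RBM42 and NUDC stood highest among the abundant genes called in heavy polysomes. RBM42 (ENSG00000126254, chromosome 19, 35629030 to 35637686), an RNA-binding protein, had normalized counts of 365, 754 and 255 in light libraries 1, 2 and 3 and of 2726, 3168 and 3496 in heavy ones. Every heavy library was above every light one. Its log2 difference was 2.91 (SE 0.47, adjusted p = 0.00643 by limma), and 3.33 without replicate 2. NUDC, a dynein-associated cochaperone, had 841, 3515 and 573 in light libraries and 10430, 7197 and 8053 in heavy ones, a difference of 2.83 (3.72 without replicate 2). For NUDC replicate 2 gave 1.03, against 3.63 and 3.81 in the other two.

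The other genes among the 12 at the heavy end had differences between 2.51 and 2.76 with all replicates and between 2.38 and 3.45 without replicate 2. UQCRC1, a core subunit of respiratory complex III, had 413, 1106 and 331 in light libraries and 3040, 4016 and 3862 in heavy ones (2.76). IDH3B, of mitochondrial isocitrate dehydrogenase, stood at 2.70, and PDHA1, of pyruvate dehydrogenase, at 2.62. EIF4A3, the helicase of the exon junction complex, stood at 2.68, and PSMD3, a subunit of the proteasome lid, at 2.66. The acidic nuclear protein ANP32A (2.56), the zinc knuckle protein ZCCHC12 (2.54), the mitochondrial processing peptidase subunit PMPCA (2.52), the phosphatase regulator PPP6R1 (2.52) and the ADP-ribose hydrolase MACROD1 (2.51) were the rest. PMPCA was as high in replicate 2 (2.79) as in replicate 3 (2.75).

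Without replicate 2, some genes entered the top that replicate 2 did not share. PGAM1, the glycolytic phosphoglycerate mutase, had 3651, 12663 and 2030 in light libraries and 39151, 11296 and 18653 in heavy ones. Light library 2 lay above heavy library 2, and the differences were 3.42, -0.16 and 3.20 in replicates 1, 2 and 3. PGAM4, its near-identical intronless copy, had -2.89, 4.21 and -2.12, so the split of reads between both genes is uncertain. ATP6V0D1, a V-ATPase subunit, behaved likewise at 3.75, -0.21 and 2.88. ETFB, the beta subunit of the electron transfer flavoprotein, kept a positive sign throughout (3.39, 0.65 and 3.48), as did ECHS1, CKB, HLA-B and HLA-C. HLA genes share near-identical stretches, so the split of reads between them is uncertain.

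At the light end, most of the abundant genes had short coding parts. TMSB15A, a beta-thymosin that binds actin monomers (138 nt), had 1114, 181 and 1208 in light libraries and 130, 33.0 and 81.8 in heavy ones. The difference was -3.13 (SE 0.72, adjusted p = 0.00797 by limma), and TMSB15B and TMSB15C, its near-identical copies, were also among the 12. NDUFB1, a complex I subunit, stood at -2.99, ATP5MK, of ATP synthase, at -2.90, the mitochondrial ribosomal protein MRPL33 at -2.90 and the nucleosome-binding protein HMGN2 at -2.89. HMGN2 had 63137, 15402 and 59216 in light libraries and 6615, 3608 and 5946 in heavy ones, with no overlap. Without replicate 2 the differences were -3.48 for TMSB15A, -3.10 for NDUFB1, -3.28 for ATP5MK, -3.12 for MRPL33 and -3.29 for HMGN2. POLR2K, a small RNA polymerase subunit, completed the nuclear genes of that group.

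**Figure D4:**
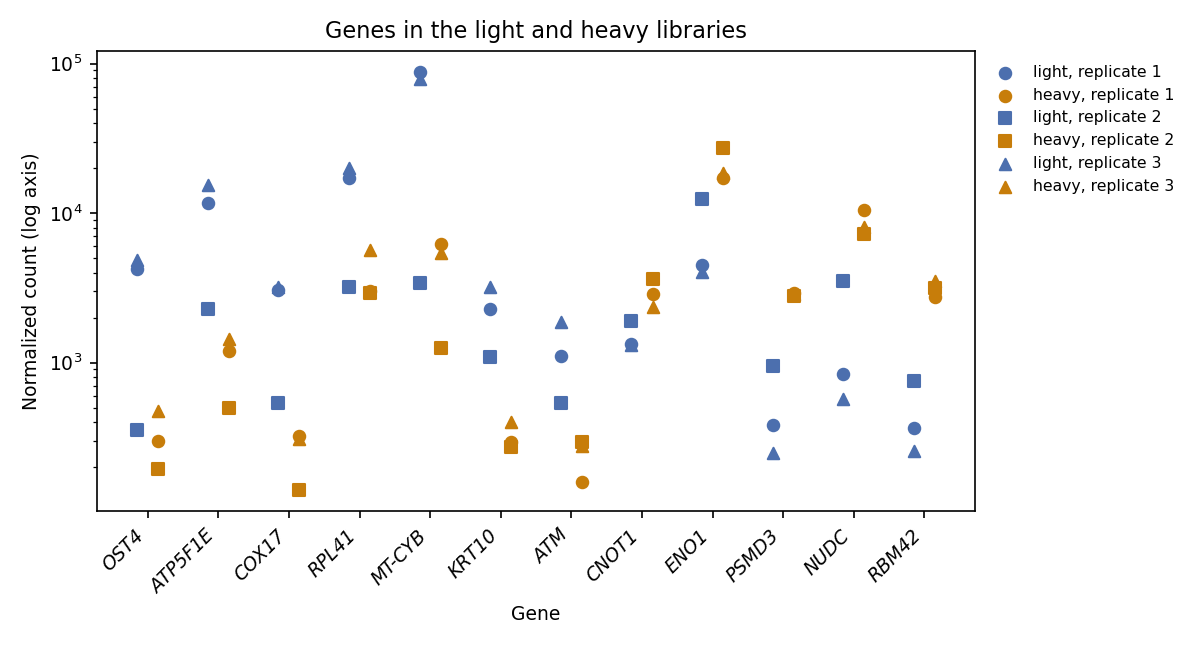
Normalized counts (log axis) of 12 genes in the 3 light (blue) and 3 heavy (orange) libraries, with the marker shape giving the replicate. For NUDC the light value of replicate 2 is 3515, against 841 and 573, and for OST4 it is 356, against 4208 and 4868, so it lies nearer to the heavy libraries in both.

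The genes of 37 lists with at least 5 members tested were then read against the 15.6% and 18.3% called over all genes, and against the median difference of all genes, 0.06. List counts without replicate 2 are to be read against that fit's shares over all genes, 31.3% higher in heavy and 30.8% higher in light polysomes. Values in each list are log2 differences, heavy minus light. For some lists the median is also given relative to each gene's own class of coding length. A list of 6 noncoding RNAs, looked for as nuclear-retained, had no member in the table. Nearly all genes tested were coding ones, among them 12041 nuclear genes with a coding length. The absence of these noncoding RNAs therefore cannot show whether the fractions held nuclear RNA. Genes named here outside the highest and lowest members were chosen after their values were seen.

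Among protein turnover genes, the proteasome list lay on the heavy side and the list of giant ubiquitin ligases did not. Of 33 proteasome subunits, which degrade ubiquitin-tagged proteins, 24 were higher in heavy polysomes and 1 in light ones (31 and 1 without replicate 2). The median was 1.60, with 2.05, 0.49 and 2.26 in replicates 1, 2 and 3, and 32 of 33 lay above the median of their length class. PSMD3, of the regulatory particle, had 381, 949 and 250 in light libraries and 2902, 2768 and 2857 in heavy ones. The exception was SEM1, a small subunit (213 nt), at -2.45 with 10054, 2152 and 12072 in light libraries and 1407, 710 and 1582 in heavy ones. Replicate 2 was of the opposite sign for 9 of the 31 heavy calls made without it, such as PSMA7 (1.51, -1.25 and 1.48 in replicates 1, 2 and 3). Of 25 HECT and other giant ubiquitin ligases, with a median of -0.35, 0 were called with all replicates, and 3 were higher in heavy and 9 in light polysomes without replicate 2. UBR1, an N-degron ligase, was -2.00, 0.68 and -1.52 in the 3 replicates.

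Both lists of metabolic enzymes also had more heavy calls than light ones. Of 16 glycolytic enzymes, 10 were higher in heavy polysomes and 0 in light ones (14 and 0 without replicate 2), with a median of 1.41 and all 16 above their length class. ALDOC, an aldolase, stood highest at 2.33, and TPI1, triosephosphate isomerase, lowest at 0.74, which did not pass with all replicates. ENO1, enolase, had 4475, 12482 and 4059 in light libraries and 17031, 27414 and 18633 in heavy ones, a difference of 1.75 (SE 0.52, adjusted p = 0.0208 by limma) and of 2.06 without replicate 2. GAPDH had a difference of 1.22, which did not pass with all replicates (adjusted p = 0.149 by limma) and passed without replicate 2 (1.33, adjusted p = 0.0105). Of 21 cholesterol synthesis enzymes and regulators, 9 were higher in heavy polysomes and 0 in light ones (15 and 1 without replicate 2). NSDHL, a sterol dehydrogenase, led at 1.84, and TM7SF2, a sterol reductase, was lowest at -0.67.

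Splicing regulators had heavy calls and no light ones, and Sm and LSM proteins had more light calls than heavy ones. Of 30 SR and hnRNP splicing regulators, 16 were higher in heavy polysomes and 0 in light ones (23 and 0 without replicate 2), with a median of 1.31. HNRNPA2B1 had 5764, 18187 and 3460 in light libraries and 54834, 37317 and 27935 in heavy ones, a difference of 2.43. Among 24 Sm and LSM proteins, which build the rings around spliceosomal RNAs, 2 were higher in heavy and 13 in light polysomes (7 and 14 without replicate 2). Of the 15 with at most 450 nt, 12 were higher in light polysomes and 0 in heavy ones, SNRPG lowest at -2.76. SNRPB, whose coding part is 696 nt, stood at 2.28 with 3482, 10295 and 2504 in light libraries and 27042, 16142 and 23606 in heavy ones.

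Within the respiratory chain the subunits split by coding length. Of 77 nuclear-encoded oxidative phosphorylation subunits, 11 were higher in heavy and 31 in light polysomes (25 and 38 without replicate 2), with a median of -0.82. All 31 light calls were among the 44 genes of at most 450 nt, whose medians were -1.93, -1.70 and -1.98 in replicates 1, 2 and 3. All 11 heavy calls were among the 33 longer ones, with medians of 1.28, -0.40 and 1.36. Complex I thus held both NDUFV1 (2.22), a core subunit, and NDUFB1 (-2.99), a small accessory one. ATP synthase held both ATP5F1B (2.23), its catalytic subunit, and ATP5F1E (-2.98). In 15 of the 25 heavy calls made without replicate 2, replicate 2 had the opposite sign.

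A list of small TIM, TOM and MICOS proteins was mostly called on the light side, and mitochondrial ribosome genes divided by coding length. Of 21 small TIM, TOM and MICOS proteins, 0 were higher in heavy and 17 in light polysomes (1 and 17 without replicate 2), TOMM5, of the outer-membrane import pore, lowest at -2.71. Their median coding part was 357 nt. TIMM23 was highest at 0.76, and was the heavy call without replicate 2 (1.09). The light calls were 12 of the 14 with at most 450 nt and 5 of the 7 longer ones. Among 76 mitochondrial ribosomal proteins, 18 were higher in heavy and 12 in light polysomes (33 and 19 without replicate 2). The 21 with at most 450 nt held 11 of the light calls and 0 of the heavy ones, with MRPL33 at -2.90, while MRPL28 (771 nt) stood at 2.32. The 55 longer ones had medians of 1.00, -0.02 and 1.09 in replicates 1, 2 and 3. In 12 of the 33 heavy calls made without replicate 2, replicate 2 had the opposite sign. Without a correction for length the median of the mitochondrial ribosomal list was 0.35 (0.35, -0.35 and 0.63 by replicate). Relative to the length classes it was 0.80.

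Mitochondrially encoded mRNAs, which ribosomes inside the organelle translate, lay on the light side. Of 13, 6 were higher in light polysomes and 0 in heavy ones with all replicates, 12 with a replicate block and 13 without replicate 2. The medians were -3.18, -1.46 and -3.03 in replicates 1, 2 and 3. MT-CYB, cytochrome b (mitochondrial genome, 14747 to 15887), had 88167, 3414 and 79123 in light libraries and 6186, 1243 and 5424 in heavy ones. Light library 2 lay below heavy libraries 1 and 3, and the difference was -3.05 (SE 1.09, adjusted p = 0.0429 by limma), or -3.85 without replicate 2. MT-ND5, a complex I subunit, had 59808, 562 and 50313 in light libraries and 2334, 197 and 2056 in heavy ones. MT-ND5 did not pass with all replicates (-3.60, adjusted p = 0.0555 by limma), passed with the block (adjusted p = 0.0135), and stood lowest of the abundant genes without replicate 2 (-4.65). MT-ATP6 and MT-ATP8 overlap on the mitochondrial genome, so the value of either is uncertain.

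Ribosomal proteins had light calls and no heavy ones. Of 47 large-subunit ribosomal proteins, 0 were higher in heavy and 12 in light polysomes (27 in light without replicate 2), and of 33 small-subunit ones 0 and 7 (23 in light without replicate 2). With all replicates these light shares were not far above the 18.3% called light over all genes, while 15.6% of all genes were called heavy. Without replicate 2 the shares over all genes were 30.8% light and 31.3% heavy. The list medians were -1.01 and -1.22, and relative to their length classes -0.03 and -0.18. RPS29 (171 nt) was the lowest of the small subunit at -2.65, with 20412, 4756 and 27722 in light libraries and 3344, 991 and 3254 in heavy ones. RPL8 and RACK1 were the highest members, at 0.76 and 0.47, and did not pass. Of 19 elongation factors and other mRNAs with a TOP start, 0 were called with all replicates, and 2 heavy and 5 light without replicate 2. Their median was -0.09, and EEF1A1, the factor that brings aminoacyl-tRNA to the ribosome, had -0.66 (adjusted p = 0.461 by limma).

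Initiation factors and tRNA synthetases had more heavy calls than light ones. Of 30 initiation factors, 8 were higher in heavy and 3 in light polysomes (15 and 6 without replicate 2), with a median of 0.78. EIF3B, a scaffold subunit of eIF3, had 1040, 2723 and 762 in light libraries and 7023, 7316 and 4484 in heavy ones, a difference of 2.25. EIF1B, a relative of the start-codon selection factor (342 nt), was lowest at -2.05, and EIF4E, the cap-binding protein, was also lower in heavy polysomes at -1.47. Of 20 cytosolic tRNA synthetases, 6 were higher in heavy polysomes and 0 in light ones (12 and 0 without replicate 2). Their medians of 0.95, 0.98 and 0.81 in replicates 1, 2 and 3 lay close together. FARSA, of the phenylalanine enzyme, led at 2.30, and QARS1, for glutamine, was lowest at -0.09.

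Each of the chaperone lists had more heavy calls than light ones. Of 23 endoplasmic reticulum chaperones and partners, 10 were higher in heavy and 1 in light polysomes (18 and 1 without replicate 2). CALR, calreticulin, had 827, 3266 and 672 in light libraries and 7011, 7890 and 5442 in heavy ones, a difference of 2.46. EDEM1, which feeds misfolded glycoproteins to degradation, was the light exception at -1.73. Of 24 cytosolic heat shock proteins and cochaperones, 11 were higher in heavy and 2 in light polysomes (15 and 2 without replicate 2). HSPA1A stood highest at 3.95 but from low counts, 12.4, 2.10 and 16.4 in light libraries and 159, 65.9 and 247 in heavy ones. HSPA1B, its near-identical copy, had 0.97 and did not pass (adjusted p = 0.144 by limma), though it passed with the replicate block (adjusted p = 0.0467). In the TRiC and prefoldin list of 14 genes, 6 were higher in heavy and 2 in light polysomes (8 and 3 without replicate 2). CCT7, a TRiC ring subunit, was highest at 2.30, and PFDN4, a small prefoldin subunit, lowest at -2.52.

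Both cell cycle lists had more heavy calls than light ones. Of 34 cyclins, kinases and mitotic regulators, 15 were higher in heavy and 5 in light polysomes (19 and 9 without replicate 2). CDC20, an activator of the anaphase-promoting complex, led at 2.10 with 465, 752 and 369 in light libraries and 2006, 2202 and 2328 in heavy ones. The small CDK-binding proteins CKS2 (240 nt, -2.71) and CKS1B (-2.36) were lowest. Of 46 DNA replication genes, 15 were higher in heavy and 4 in light polysomes (28 and 6 without replicate 2). FEN1, a flap endonuclease, stood at 2.15, and the small subunits POLE4 and RPA3 at -2.33 and -2.22.

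Structural, transport and secretory genes were called on both sides. In the list of 30 actins, tubulins and thymosins, 9 were higher in heavy and 5 in light polysomes (18 and 6 without replicate 2). Medians of that list were 1.11, -0.295 and 1.08 in replicates 1, 2 and 3, and 5 of those 18 had the opposite sign in replicate 2. The actin nucleator subunit ACTR2 stood highest at 2.23, and TMSB15A and TMSB4X lowest at -3.13 and -2.76. ACTB had 15819, 32261 and 8415 in light libraries and 126622, 22379 and 59193 in heavy ones, and differences of 3.00, -0.53 and 2.81 in replicates 1, 2 and 3. ACTB did not pass with all replicates (1.76, adjusted p = 0.0531 by limma) and passed without replicate 2 (2.91, adjusted p = 7.71e-05). Of 46 motor proteins, 7 were higher in heavy and 5 in light polysomes (12 and 9 without replicate 2), with the dynein light chains DYNLL1 and DYNLT3 lowest at -2.57 and -2.50. The median of the motor proteins was 0.27 with all replicates and -0.0045 without replicate 2. Of 33 genes of the oligosaccharyltransferase, translocon and signal peptidase, 7 were higher on each side (17 heavy and 8 light without replicate 2). SRP68, of the signal recognition particle, stood highest at 2.06, and SEC61G, a small translocon subunit, lowest at -2.79. Of 17 V-ATPase subunits, 5 were higher on each side (8 heavy and 5 light without replicate 2), ATP6AP1 highest at 2.30 and ATP6V0E1 lowest at -1.98. The V-ATPase medians were 0.76, -0.24 and 0.22 in replicates 1, 2 and 3, and 4 of those 8 had the opposite sign in replicate 2. Of 48 nuclear pore and karyopherin genes, 8 were higher in heavy and 0 in light polysomes (20 and 5 without replicate 2). RANBP2, a nucleoporin with a coding part of 9675 nt, was -1.45, 0.52 and -0.98 in replicates 1, 2 and 3.

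Extracellular matrix and cell surface genes mostly passed in neither direction. Of 26 collagens, laminins and fibrillins, 3 were higher in heavy and 2 in light polysomes (7 and 5 without replicate 2), with medians of 0.05, 1.03 and 0.16 in replicates 1, 2 and 3. SPARC, a matrix glycoprotein in that list with a coding part of 912 nt, stood highest at 2.13, and COL4A5, a basement membrane collagen, lowest at -1.16. FBN1, fibrillin, was -1.07, 1.97 and -1.24 in the 3 replicates. Of 17 cadherins, protocadherins and teneurins, 0 were higher in heavy and 3 in light polysomes (1 and 6 without replicate 2). The median of that list was 0.06 with all replicates and -0.47 without replicate 2.

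The histone and high mobility group lists had more light calls than heavy ones, and most chromatin enzymes passed in neither direction with all replicates. Of 17 replication-dependent histones, 0 were higher in heavy and 10 in light polysomes (14 in light without replicate 2), with a median of -1.32. H4C8 was lowest at -2.88, from low counts of 27.0, 4.19 and 24.6 in light libraries and 0.818, 0.903 and 1.72 in heavy ones. Histone genes of 1 type are near-identical, and their mRNAs end without a poly(A) tail, and whether libraries were made from poly(A) RNA is not given in the sources used here. Of 10 high mobility group proteins, 2 were higher in heavy and 6 in light polysomes (3 and 6 without replicate 2). All 6 with at most 450 nt were light calls, led by HMGN2, and HMGN5 (849 nt) was highest at 1.86 with differences of 2.92, -0.08 and 2.76. Of 46 chromatin remodelling and histone-modifying enzymes, 2 were higher in heavy and 4 in light polysomes, but 8 and 19 without replicate 2. With all replicates 40 passed in neither direction, and both shares called were below the 15.6% and 18.3% over all genes. Relative to their length classes the median was -0.09. For 13 of those 19, replicate 2 was above 0. KMT2A, a histone H3 lysine methyltransferase, was the lowest of the list at -1.38 and was lower in 3 of 3 replicates.

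**Figure D5:**
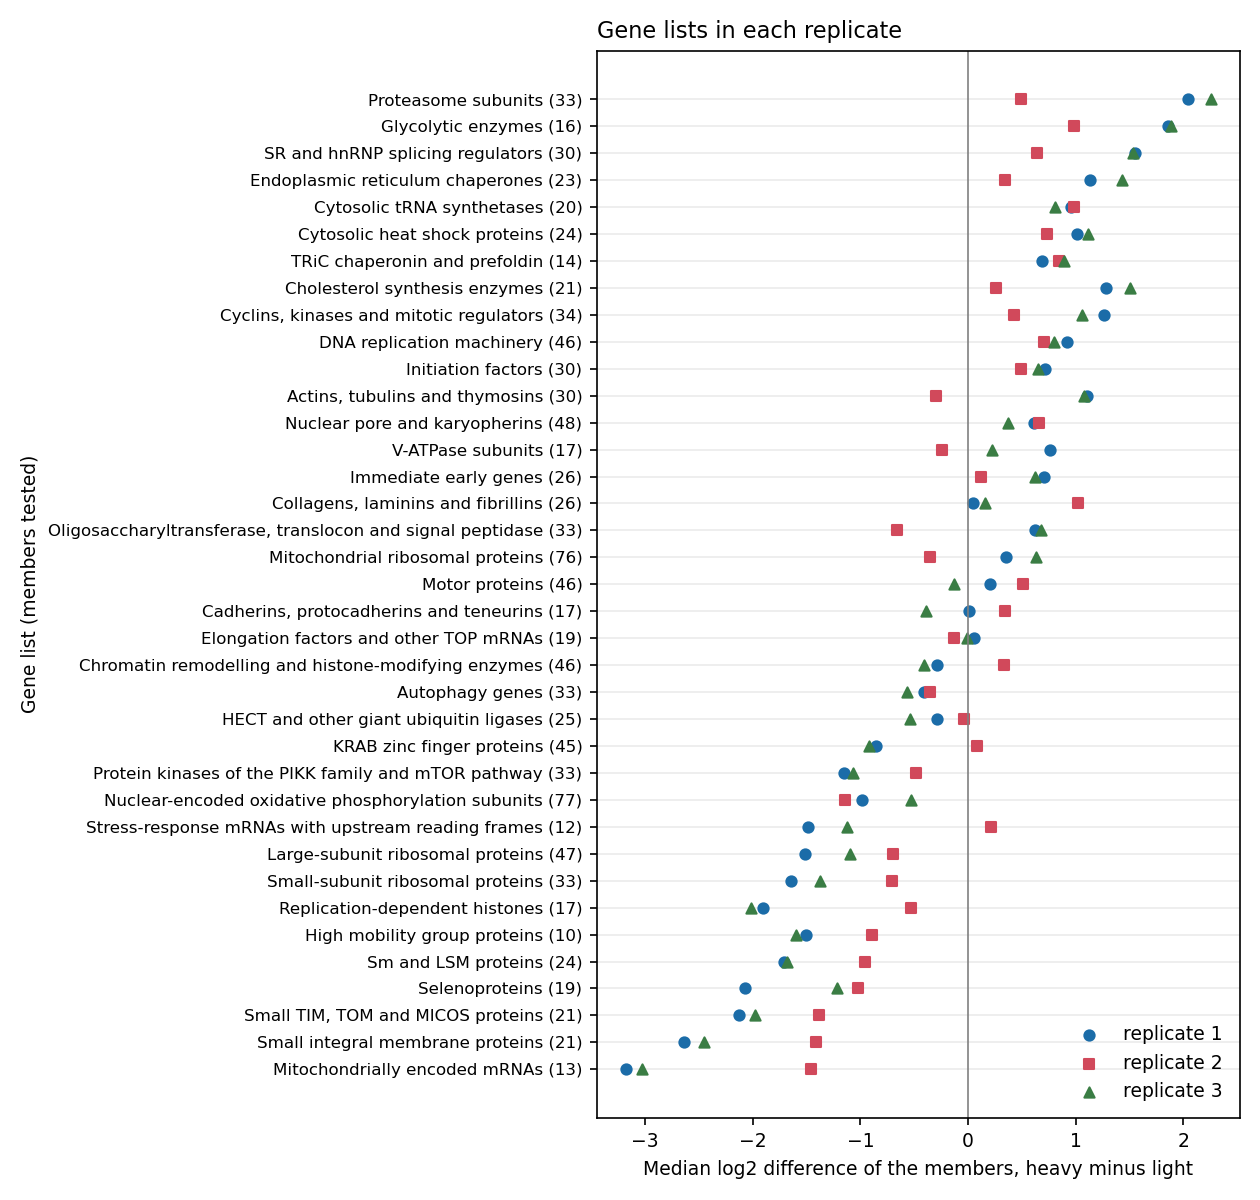
Median log2 difference, heavy minus light, of the members of 37 gene lists in each replicate, with the number of members tested in brackets. Proteasome subunits lie highest (2.05, 0.49 and 2.26) and mitochondrially encoded mRNAs lowest (-3.18, -1.46 and -3.03), and in both replicate 2 lies nearest to 0.

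Several lists on the light side did not have short coding parts. Of 45 KRAB zinc finger proteins, a family of DNA-binding repressors with a median coding part of 1761 nt, 0 were higher in heavy and 10 in light polysomes (1 and 29 without replicate 2). The median was -0.61, and relative to their length classes -1.01, with 3 of 45 above the class median. ZNF44 had 217, 122 and 277 in light libraries and 39.3, 61.4 and 44.8 in heavy ones, a difference of -2.00 (SE 0.41, adjusted p = 0.00667 by limma) and of -2.52 without replicate 2. In replicate 2 the list's median was 0.09, and for 13 of the 29 light calls replicate 2 was above 0.

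Stress-response mRNAs with upstream reading frames lay on the light side in replicates 1 and 3. Of 12, 0 were higher in heavy and 4 in light polysomes (1 and 8 without replicate 2), with medians of -1.48, 0.21 and -1.13 in replicates 1, 2 and 3. ATF4, the transcription factor of the integrated stress response, whose upstream reading frames hold back translation of its main one in unstressed cells, had 17103, 6870 and 22141 in light libraries and 2251, 8635 and 5738 in heavy ones. The groups overlapped, because replicate 2 was high in the heavy fraction and low in the light one. ATF4 did not pass with all replicates (-1.51, SE 0.58, adjusted p = 0.0561 by limma) and passed without replicate 2 (-2.44, SE 0.39, adjusted p = 0.000159). SLC35A4 was the lowest at -1.69 and ATF5 passed at -1.44 (adjusted p = 0.0221 by limma), with -0.03 in replicate 2. DDIT3, a proapoptotic stress factor, did not pass (-1.31, adjusted p = 0.176 by limma) but passed with the replicate block (adjusted p = 0.027).

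Selenoproteins insert selenocysteine at a UGA codon. Of 19, 3 were higher in heavy and 10 in light polysomes (4 and 11 without replicate 2), with a median of -1.43. GPX1, glutathione peroxidase, had 16678, 3617 and 15461 in light libraries and 2397, 1155 and 2452 in heavy ones, a difference of -2.37 (-2.73 without replicate 2). SELENOP, the selenium carrier, whose coding part is 1146 nt, had 2044, 1864 and 2910 in light libraries and 431, 425 and 500 in heavy ones. The differences of SELENOP were -2.24, -2.13 and -2.54, so replicate 2 was as low as the others. On the other side TXNRD2, a mitochondrial thioredoxin reductase, stood at 1.99, TXNRD1 at 1.15 and SELENOO at 0.91, all called higher in heavy polysomes.

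The mTOR and autophagy lists had more light calls than heavy ones, and the immediate early list more heavy ones. Light calls took in 5 of 5 mTOR-list genes of at most 450 nt and 8 of 28 longer ones. In the autophagy list they were 4 of 5 and 7 of 28. Of 33 genes of the mTOR pathway and PIKK kinases, 2 were higher in heavy and 13 in light polysomes (5 and 21 without replicate 2). The Ragulator subunits LAMTOR5 and LAMTOR3, which anchor mTORC1 to lysosomes, were lowest at -2.43 and -2.38. RRAGA, the Rag GTPase that binds Ragulator, was highest at 2.51 with 343, 722 and 272 in light libraries and 3054, 1762 and 2304 in heavy ones. MTOR itself, with a coding part of 7650 nt, was -1.06, 1.59 and -0.40 in replicates 1, 2 and 3. Of 33 autophagy genes, 4 were higher in heavy and 11 in light polysomes (8 and 14 without replicate 2), the ubiquitin-like ATG12 lowest at -2.31 and the protease ATG4B highest at 1.34. Of 26 immediate early genes, 5 were higher in heavy and 2 in light polysomes (13 and 2 without replicate 2). JUN was highest at 2.39, with 341, 785 and 370 in light libraries and 1808, 3372 and 2358 in heavy ones, and BTG1, an antiproliferative factor, lowest at -1.95.

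Single genes of 901 to 3000 nt also lay far to the light side, and those given here were chosen after their values were seen, by size among the more abundant genes. KRT10, a keratin of 1755 nt, had 2276, 1090 and 3222 in light libraries and 295, 273 and 399 in heavy ones. Its difference was -2.65 (SE 0.41, adjusted p = 0.00643 by limma), against a median of 0.40 for its length class, and it was -2.98 without replicate 2. GPR160, an orphan receptor, stood at -2.48, KATNBL1, a katanin-related protein, at -2.48, and MDM4, a p53 inhibitor, at -2.29. MDM4 had 1772, 1046 and 1557 in light libraries and 225, 383 and 282 in heavy ones. CCNI, an atypical cyclin, had 16924, 6748 and 19248 in light libraries and 3634, 1520 and 3649 in heavy ones, and its differences of -2.22, -2.15 and -2.40 were close in all 3 replicates.

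Among coding parts over 6000 nt, TENM1 and ATM were low in every replicate. TENM1, a teneurin of 8199 nt, had 3248, 1412 and 3982 in light libraries and 367, 435 and 554 in heavy ones, a difference of -2.56 (SE 0.39, adjusted p = 0.00643 by limma) and of -2.99 without replicate 2. ATM, a DNA damage kinase of 9171 nt, had 1110, 535 and 1871 in light libraries and 160, 295 and 277 in heavy ones, a difference of -2.13 (-2.77 without replicate 2). Against these, the nonsense-mediated decay kinase SMG1 was -1.93, 0.24 and -2.14 in replicates 1, 2 and 3, and the telomere-associated RIF1 -1.89, 0.61 and -1.76. Both passed without replicate 2 and not with all replicates. The 6 long genes higher in heavy polysomes were PRRC2A, MYO9B, FLNC, SRCAP, PCNX3 and CNOT1 with all replicates. Without replicate 2, MYO9B (1.14, adjusted p = 0.0510 by limma) and SRCAP (0.74, adjusted p = 0.0520) did not pass, and the other 4 did. PRRC2A (6474 nt) led with 686, 688 and 731 in light libraries and 1480, 2329 and 1818 in heavy ones, a difference of 1.39 (SE 0.36, adjusted p = 0.0115 by limma) and of 1.21 without replicate 2. CNOT1, the scaffold of the CCR4-NOT deadenylase, had 0.96 (adjusted p = 0.0496 by limma) and did not pass with the replicate block (adjusted p = 0.0551).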

How the data were processed

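The deposited table gives a signal for each library: gene counts divided by 1 number per library. Whole reads were recovered from their steps for 100% of the values of every library at a tolerance of 0.01 reads. Per the submitters' processing notes, featureCounts and GRCh38 were used; the aligner, strand and counting options: not given in the sources used here. Rows without a gene symbol (233) held at most 0.197% of a library's reads.

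From these values, log2(normalized count + 1) was compared between fractions with limma 3.58.1 (trend, R 4.3.3, 9 libraries, fraction as the only term) for genes with a mean of at least 20. A fold change on this scale understates the change of low genes. Per the labels, the number of a replicate is also its batch, so same-numbered libraries are paired by label. Deviations of light and heavy libraries from their group means correlated at 0.09, 0.20 and 0.43 in replicates 1, 2 and 3. Precision is limited by 3 replicates per fraction (only replicates 1 and 3 in the fit without replicate 2) and, for low genes, by the number of reads. Coding lengths came from GENCODE release 29, with 1 transcript per gene. The test was checked on simulated counts with the same spread in every library. That setting has no outlying library such as light library 2, so the check does not cover its effect. Genes were named by a rule: the 12 highest and 12 lowest called genes of each fit with a mean above the median of the genes tested, the 2 highest and 2 lowest members of each list, ATF4, GAPDH, ACTB and EEF1A1; others are said to be chosen by value. One gene, and a list built around it, are not reported here. Members and lists were chosen with earlier results of these data known. Alternatives covered the replicate block, left-out libraries, pseudocount, filter, scaling, weights, edgeR 4.0.16 and DESeq2 1.42.0.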

Additional observations from a re-analysis of the deposited data

How the results depend on the processing

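None of the settings tried reversed a called gene among the 137 named by the rule. The rule picked genes partly by size and shared sign in these same fits, including the one without replicate 2. Few reversals or losses were therefore to be found in that fit, and these counts do not speak for other genes. The totals of calls when 1 replicate or 1 library was left out ran from 0 to 7491, with 0 to 3773 in heavy and 0 to 3718 in light polysomes. With library weights, which gave light library 2 a weight of 0.167, limma called 7987 genes, 4069 in heavy and 3918 in light polysomes. The replicate block gave 1974 heavy and 2322 light calls. The block also ended the call of CNOT1, which is not among the 137, and added those of HSPA1B, DDIT3, MT-ND5 and other mitochondrially encoded mRNAs. Other pseudocounts, filters, scalings, moderation, edgeR (1648 heavy and 2557 light) and DESeq2 (2057 and 2767) stayed within 1.5 times of the counts. Of these 137 genes, the replicate block kept 137, edgeR 134 and DESeq2 136. Calls were kept for 0, 136 and 1 of them without replicate 1, 2 or 3, and for 74 to 136 without a single library. The median of genes with coding parts over 3000 and up to 6000 nt was 0.17, and -0.03 without replicate 2. Without replicate 2, settings added after seeing the data gave 3480 to 4005 heavy and 3140 to 3887 light calls. The cause of the difference between light library 2 and the others was not tested. Single histone genes such as H4C8 rest on few reads, which limits their values.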
